A study of Mus musculus with 6 samples.

Results

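The endoplasmic reticulum (ER) translocon and the machinery for N-linked glycosylation were followed through 42 genes. These were taken by gene symbol from the 14665 protein-coding genes of the deposited count table. No measured value entered that rule, but the genes were chosen with earlier results of these data known. They cover the signal recognition particle (SRP) and its receptor, the Sec61 channel, the translocon-associated protein complex (TRAP), signal peptidase, oligosaccharyltransferase (OST), the enzymes that build the lipid-linked oligosaccharide, and the glucose trimming and lectin chaperone cycle. RNA came from C17.2 cells, an immortalized line of mouse neural stem cells (NSCs), here with the label wild type. The control group (n = 3 libraries) was kept without the low-oxygen treatment. The hypoxia/reoxygenation (H/R) group (n = 3 libraries) was held for 12 h at 5% oxygen with 48 h of reoxygenation afterwards, as a cell model of ischemia and reperfusion. C17.2 is a single established line in culture, without the other cells of brain tissue. Whether replicate libraries stem from separate cultures is not stated, and the spread behind the p-values may therefore be technical.

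Proteins destined for secretion or for membranes carry a signal sequence that SRP recognizes on the ribosome. The ribosome is then brought to the Sec61 channel, through which the growing chain enters the ER, and signal peptidase cuts the signal off. OST moves a preassembled, glucose-capped sugar tree from the lipid dolichol onto asparagine residues of the chain. Glucosidases then trim the glucoses, and the lectin chaperones calnexin and calreticulin hold the glycoprotein while it folds. Many of these genes are known as targets of the unfolded protein response, which acts through promoter elements such as the ER stress response element (ERSE).

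Total gene counts per library ran from 7267809 to 8371882 in the control group and from 15639751 to 16830389 in the H/R group. Expression is given in CPM (counts scaled to a common library total), corrected by edgeR's TMM factors, and errors are SD over the 3 libraries of a group unless named as standard errors. Changes are log2(H/R / control) with their standard error. Adjusted p-values are from edgeR's two-sided quasi-likelihood test with Benjamini-Hochberg adjustment over 11104 tested genes, with 0.05 as the threshold. Of the NSC markers, 6 of 11 had rows in the table, and their summed level was 1454 to 1550 CPM in control and 1678 to 1765 CPM in H/R libraries. Vim, a filament gene of neural progenitors, made up most of it, and Nes, which encodes the NSC filament nestin, rose from 196 ± 16.3 to 331 ± 19.2 CPM (log2 change 0.76, adjusted p = 3.26e-05, edgeR quasi-likelihood test). Msi2, an RNA-binding protein gene of the same list, fell from 52.2 ± 1.80 to 34.9 ± 5.30 CPM (log2 change -0.58), and the other 4 did not pass. The 4 astrocyte markers in the table summed to at most 2.31 CPM and the 3 microglia markers to at most 1.17 CPM in any library. The 6 fibroblast and endothelial markers summed to 4681 to 6556 CPM in control and 4362 to 5602 CPM in H/R libraries, nearly all of it from Col1a1 and Col1a2, and the endothelial markers Pecam1, Cdh5 and Kdr each averaged under 1 CPM in both groups (Pecam1 reached 2.54 CPM in 1 control library). The 4 neuronal markers summed to 73.2 to 81.1 CPM in control and 33.7 to 37.9 CPM in H/R libraries, nearly all of it Map2, with Tubb3, Syp and Snap25 each averaging under 1 CPM in both groups (Syp reached 1.49 CPM in 1 H/R library). The 5 oligodendrocyte lineage markers summed to 113 to 145 and 82.4 to 93.9 CPM, with Sox10 and Mog under 1 CPM. The part of these shifts in the results was not tested. In such bulk RNA, fewer cells that express a gene and less RNA per cell cannot be told apart.

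Most of the machinery had lower RNA levels after H/R. Of 42 members, 41 passed the filter on low counts. Of these, 29 fell, 1 rose and 11 did not pass the test. Among all tested genes 19.0% fell and 18.8% rose. Scaled by library totals alone, 27 members were lower and 3 higher, beside 1272 genes lower and 3704 higher over the whole table. The median log2 change was -0.71 over the tested members and 0.01 over all tested genes, and 38 of the 41 estimates were negative. In 29 members every H/R library lay below every control library, in 1 every H/R library lay above, and in 11 the groups overlapped. Over all genes, 24.0% lay below without overlap and 25.7% above. At the study's own thresholds (fold change of at least 2 and unadjusted p under 0.05), 12 members were lower and 0 higher, where 5.37% of all genes were lower and 5.82% higher. The member left out was Alg9, a mannosyltransferase of the ER, with 3, 4 and 1 reads in control and 0, 2 and 2 reads in H/R libraries.

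**Figure D1:**
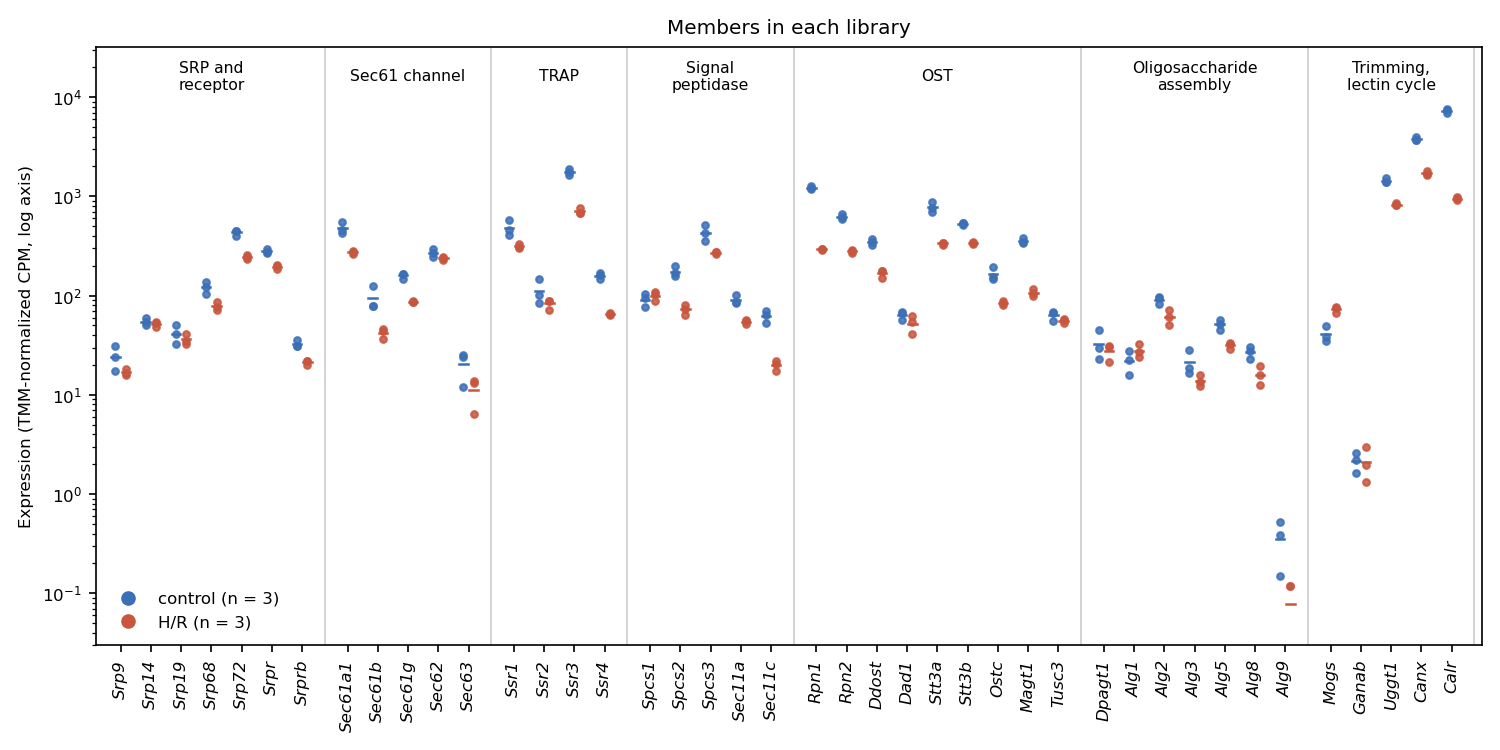
Expression of the 42 members in each of the 6 libraries, in CPM after TMM scaling (log axis), grouped by complex, with blue points for control, red points for H/R and a short bar at each group mean (n = 3). The red points lie below the blue ones in most members, with the widest gaps for Calr, Rpn1, Magt1 and Sec11c, and above them for Mogs. The H/R library with 0 reads of Alg9 cannot be drawn on a log axis and is left out.

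The sequences before the start sites of 4 members are shown first, because these genes hold the largest falls (Calr and Rpn1), the most RNA (Calr and Canx) and the only rise (Mogs). They are the 250 bases before the annotated start in RefSeq, build GRCm38.p6, 5′ to 3′ on the strand of the gene. The letters in capitals mark every match, on either strand, to 6 motifs: the box CCAAT, the box CCACG, the full ERSE, which is the first box and the second one 9 bases after it, ERSE-II, which is ATTGG with CCACG starting after 1 further base, the core of the unfolded protein response element (UPRE), written TGACGTG, and the amino acid response motif, written TGATGNAA. Calr lies at chr8:84846932-84847181 on the minus strand, Canx at chr11:50325674-50325923 on the minus strand, Rpn1 at chr6:88084223-88084472 and Mogs at chr6:83115256-83115505, both on the plus strand.
Calr: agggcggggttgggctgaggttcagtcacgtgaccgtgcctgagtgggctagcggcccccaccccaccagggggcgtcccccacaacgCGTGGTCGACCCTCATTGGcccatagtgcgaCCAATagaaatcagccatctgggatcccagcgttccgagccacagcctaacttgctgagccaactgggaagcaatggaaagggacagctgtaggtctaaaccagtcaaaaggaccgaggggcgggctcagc
Canx: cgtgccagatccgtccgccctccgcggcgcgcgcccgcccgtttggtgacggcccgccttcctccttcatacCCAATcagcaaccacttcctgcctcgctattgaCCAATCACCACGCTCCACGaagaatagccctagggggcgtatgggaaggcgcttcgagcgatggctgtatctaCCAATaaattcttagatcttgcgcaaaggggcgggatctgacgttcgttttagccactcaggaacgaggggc
Rpn1: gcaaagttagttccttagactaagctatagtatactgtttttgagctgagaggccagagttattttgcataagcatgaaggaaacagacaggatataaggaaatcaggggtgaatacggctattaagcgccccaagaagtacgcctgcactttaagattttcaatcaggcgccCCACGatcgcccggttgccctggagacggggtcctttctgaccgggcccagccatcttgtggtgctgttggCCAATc
Mogs: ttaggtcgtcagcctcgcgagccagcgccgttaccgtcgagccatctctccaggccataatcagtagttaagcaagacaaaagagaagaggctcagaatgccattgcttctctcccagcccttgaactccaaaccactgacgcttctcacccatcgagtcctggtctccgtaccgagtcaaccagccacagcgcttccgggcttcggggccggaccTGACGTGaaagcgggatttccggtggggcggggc
The long capital run of Calr reads as the full ERSE on the minus strand of the gene, and that of Canx reads as the full ERSE on the plus strand with a further CCACG inside its spacer. Rpn1 holds CCACG and CCAAT apart from each other, with no full ERSE, and Mogs holds the UPRE core alone.

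SRP and its receptor had the median change closest to 0 among the complexes. Of 7 members, 4 fell and 3 did not pass the test, with a median log2 change of -0.52. SRP is an RNA with several proteins, and the pair of large subunits fell. Srp72 measured 453, 450 and 396 CPM in the control libraries and 245, 235 and 255 CPM in the H/R libraries. The groups did not overlap, and the log2 change was -0.82 ± 0.09 (standard error; adjusted p = 1.05e-05, edgeR quasi-likelihood test). Its partner Srp68 fell from 121 ± 15.8 to 77.9 ± 7.45 CPM. Srp9 and Srp14, which form the part of SRP that pauses translation, did not pass the test. Srp14 measured 54.7 ± 4.64 CPM in control and 51.7 ± 2.69 CPM in H/R libraries, a log2 change of -0.08 with a 95% confidence interval of -0.33 to 0.17. Srp9 had a log2 change of -0.52 ± 0.20 with an adjusted p of 0.0627 in edgeR's quasi-likelihood test, and passed by DESeq2, by edgeR's exact test and without control replicate 3. Srp19, which helps assemble the particle, measured 41.4 ± 8.71 and 36.2 ± 4.21 CPM. Both receptor subunits fell. Srpr, the GTPase that docks SRP at the membrane, went from 279 ± 12.3 to 196 ± 7.88 CPM, and its membrane anchor Srprb from 32.6 ± 2.59 to 21.3 ± 1.12 CPM. Srprb shares 20.7% of its exonic bases with another gene on the same strand, so its counts are less certain.

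Srpr is the other member with a UPRE core before its start. It is shown here beside Mogs because both hold these letters and they moved in opposite directions. The 2 promoters differ in the other motifs. Outside the stretch shown, Srpr also holds CCACG, starting at bases -233, -173 and -68, and CCAAT, starting at base -125. Mogs holds neither box. The stretch lies at chr9:35211175-35211202 on the plus strand of GRCm38.p6, with the UPRE core in capitals.
Srpr: cgggggctgctggtgTGACGTGtcccgc
The log2 change was -0.51 ± 0.08 for Srpr and 0.83 ± 0.14 for Mogs.

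All 3 subunits of the Sec61 channel fell. Sec61a1, which encodes the pore, measured 546, 462 and 429 CPM in control and 275, 283 and 261 CPM in H/R libraries (log2 change -0.81 ± 0.10, adjusted p = 3.13e-05, edgeR quasi-likelihood test). Every H/R library lay below every control library. The small subunit Sec61b fell from 125, 77.9 and 78.6 CPM in control to 46.2, 43.5 and 36.3 CPM in H/R libraries (log2 change -1.16 ± 0.17), with the first control library above the other two. Sec61g, the other small subunit, fell from 160 ± 9.92 to 87.0 ± 1.33 CPM (log2 change -0.88 ± 0.09). The partners Sec62 and Sec63 work with the channel in post-translational transport. Sec62 did not pass the test, with 271 ± 24.8 CPM in control and 239 ± 7.27 CPM in H/R libraries. Its log2 change was -0.18 (95% confidence interval -0.37 to 0.0155). The groups lay narrowly apart, with 246 CPM in the lowest control and 245 CPM in the highest H/R library. Sec62 passed without control replicate 3, while its log2 change was 0.0341 with no scaling factors. Sec63 measured 25.4, 24.0 and 12.1 CPM in control and 13.03, 13.7 and 6.47 CPM in H/R libraries. Its groups overlapped, and the adjusted p was 0.0374 in edgeR's quasi-likelihood test. The call of Sec63 was lost with no scaling factors and when control replicate 1 or 2 or H/R replicate 1 or 3 was left out. Over these 5 genes the median log2 change was -0.88.

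TRAP helps certain signal sequences open the channel, and 3 of its 4 subunits fell, with a median log2 change of -0.95. Ssr3, at chr3:65379655-65392623, measured 1902, 1751 and 1657 CPM in control and 681, 676 and 761 CPM in H/R libraries. The lowest control library had more than the highest H/R library, and the log2 change was -1.33 ± 0.09 (adjusted p = 2.23e-07, edgeR quasi-likelihood test). Ssr4 fell from 159 ± 12.6 to 65.1 ± 1.89 CPM, and Ssr1 from 480 ± 82.2 to 313 ± 15.8 CPM. Ssr2 measured 148, 84.3 and 102 CPM in control and 89.0, 89.1 and 72.4 CPM in H/R libraries. These groups overlapped, and Ssr2 did not pass the test (adjusted p = 0.0712, edgeR quasi-likelihood test), although it passed by DESeq2, with no filter on low counts, with a replicate block and without control replicate 2.

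Signal peptidase has a catalytic subunit in either of 2 forms, Sec11a and Sec11c, and accessory subunits. Both catalytic forms fell. Sec11c measured 69.5, 63.3 and 53.3 CPM in control and 17.4, 20.6 and 22.1 CPM in H/R libraries, with no overlap (log2 change -1.63 ± 0.15, adjusted p = 3.23e-06, edgeR quasi-likelihood test). Sec11a fell from 90.4 ± 9.20 to 54.4 ± 2.79 CPM (log2 change -0.73 ± 0.11). Of the accessory subunits, Spcs2 fell from 174 ± 20.7 to 72.7 ± 8.36 CPM and Spcs3, which is needed for activity, from 432 ± 78.3 to 271 ± 7.0 CPM. Spcs1 measured 91.2 ± 13.7 CPM in control and 99.9 ± 10.2 CPM in H/R libraries, with a log2 change of 0.13 (95% confidence interval -0.14 to 0.40), and did not pass the test. Spcs1 shares 16.3% of its exonic bases with a gene on the other strand, as do Alg1 (17.6%), Srp9 (14.1%), Alg9 (12.9%), Ssr2 (12.8%), Sec62 (11.7%), Alg3 (8.70%), Sec61a1 (8.16%) and Rpn2 (5.46%). The strand setting of the counting is not given in the sources used here, so these counts may hold reads of the overlapping gene. The median log2 change over the 5 genes was -0.73.

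OST had the lowest median of the complexes, with 7 of 9 subunits lower, 2 that did not pass and a median log2 change of -1.03. Rpn1 encodes ribophorin I, a large subunit that helps bind substrates, and lies at chr6:88084482-88105304 on the plus strand. It measured 1267, 1183 and 1205 CPM in control and 290, 296 and 298 CPM in H/R libraries. The libraries of each group lay close together and far from the other group, which gave a 4.14-fold lower level (log2 change -2.05 ± 0.08, adjusted p = 1.15e-09, edgeR quasi-likelihood test). The other core subunits changed less. Rpn2 went from 625 ± 38.5 to 281 ± 10.3 CPM, Ddost from 345 ± 23.1 to 169 ± 15.3 CPM and Ostc, a subunit of the form of OST bound to the translocon, from 165 ± 25.5 to 84.0 ± 3.76 CPM. Dad1, a small core subunit, measured 68.4, 57.2 and 67.1 CPM in control and 62.0, 53.7 and 41.0 CPM in H/R libraries, with overlap (adjusted p = 0.135, edgeR quasi-likelihood test).

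OST exists in a form with the catalytic subunit STT3A, which acts as the chain enters the ER, and a form with STT3B, which acts on sites that were skipped and works with MAGT1 or TUSC3. Stt3a measured 868, 765 and 702 CPM in control and 326, 337 and 343 CPM in H/R libraries, and Stt3b 543, 515 and 536 CPM and 333, 336 and 351 CPM. Both fell without overlap, with log2 changes of -1.22 ± 0.09 and -0.64 ± 0.08. The ratio of Stt3a to Stt3b counts within a library was 1.60, 1.49 and 1.31 in control and 0.979, 1.00 and 0.977 in H/R libraries. Magt1, an oxidoreductase subunit on chromosome X, measured 384, 346 and 338 CPM in control and 105, 117 and 99.8 CPM in H/R libraries (log2 change -1.73 ± 0.10, adjusted p = 6.08e-08, edgeR quasi-likelihood test). Its paralog Tusc3 did not pass, with 63.9 ± 7.20 CPM in control and 56.0 ± 3.06 CPM in H/R libraries (log2 change -0.19, 95% confidence interval -0.45 to 0.0627). The Magt1 to Tusc3 ratio went from 5.61 ± 0.545 to 1.92 ± 0.0919.

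**Figure D2:**
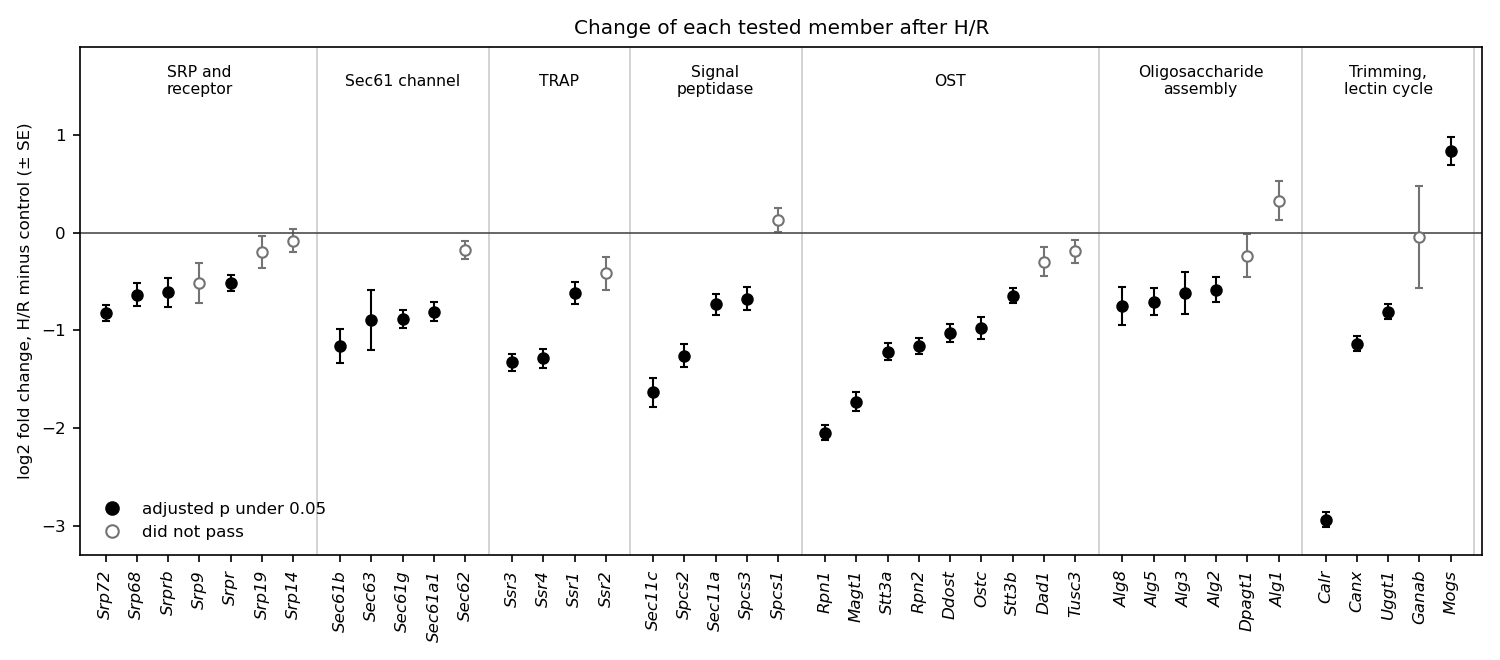
Change of each of the 41 tested members, as log2(H/R / control) on the vertical axis with standard errors as bars, grouped by complex and ordered within it. Filled points passed an adjusted p of 0.05 and open points did not. OST holds the most members below -1, Calr lies lowest at -2.94, and Mogs, at 0.83, is the only filled point above 0.

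The sugar tree is built on dolichol by the ALG enzymes. Of the 6 members tested, 4 fell and 2 did not pass, with a median log2 change of -0.60. Alg8, a glucosyltransferase, measured 23.2, 27.4 and 30.4 CPM in control and 12.5, 19.7 and 15.8 CPM in H/R libraries (log2 change -0.75 ± 0.19, adjusted p = 0.00832, edgeR quasi-likelihood test). Alg5, which makes the dolichol-linked glucose donor, fell from 51.3 ± 6.24 to 31.5 ± 2.38 CPM. The mannosyltransferase Alg2 fell from 91.1 ± 7.73 to 60.9 ± 10.0 CPM. Alg3, another mannosyltransferase, went from 21.2 ± 6.16 to 13.9 ± 1.78 CPM and passed narrowly (adjusted p = 0.0397, edgeR quasi-likelihood test). Its call was lost with no scaling factors and when control replicate 1 or any H/R replicate was left out. The first enzymes of the pathway did not pass. Dpagt1, which adds the first sugar, measured 32.5 ± 11.1 and 27.7 ± 5.39 CPM, and Alg1, the first mannosyltransferase, 22.2 ± 5.98 and 27.8 ± 4.18 CPM.

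The trimming and lectin cycle held both the largest fall and the only rise. Of 5 members 3 fell, 1 rose and 1 did not pass, with a median log2 change of -0.81. Calr, which encodes the soluble lectin chaperone calreticulin, lies at chr8:84841850-84846934 on the minus strand. It measured 7354, 6922 and 7580 CPM in control and 955, 917 and 982 CPM in H/R libraries. Each group was tight, and the level was 7.66-fold lower after H/R (log2 change -2.94 ± 0.08, adjusted p = 4.52e-11, edgeR quasi-likelihood test). Canx, which encodes its membrane-bound relative calnexin, measured 3698, 3665 and 3965 CPM in control and 1653, 1675 and 1820 CPM in H/R libraries (log2 change -1.14 ± 0.08, adjusted p = 2.87e-07, same test in edgeR). The Canx to Calr count ratio went from 0.518 ± 0.0139 to 1.80 ± 0.0641. Uggt1, the folding sensor that adds a glucose back to misfolded glycoproteins, fell from 1443 ± 82.7 to 825 ± 22.6 CPM.

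Mogs encodes glucosidase I, the first enzyme to act on the transferred sugar tree. It lies at chr6:83115496-83118898 on the plus strand and measured 49.4, 38.1 and 34.6 CPM in control and 75.1, 76.7 and 66.2 CPM in H/R libraries. Every H/R library lay above every control library, and the log2 change was 0.83 ± 0.14 (adjusted p = 0.000431, edgeR quasi-likelihood test). Ganab, the catalytic subunit of glucosidase II, which acts next, had only 11 to 20 reads in control and 24 to 51 reads in H/R libraries. With these counts the 95% confidence interval of its change ran from -1.17 to 1.09 on the log2 scale. Why so few reads were counted for Ganab and Alg9 was not tested.

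**Figure D3:**
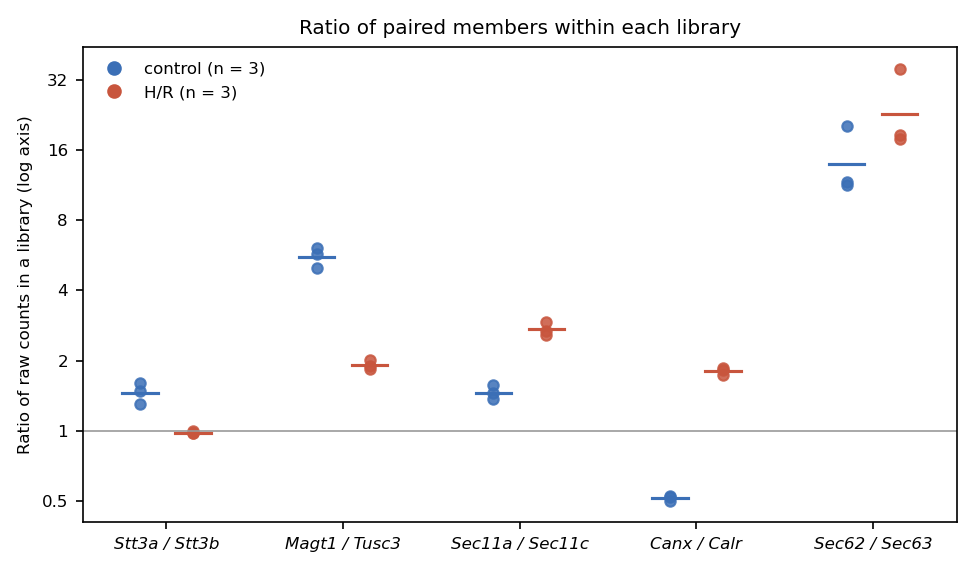
Ratio of the raw counts of paired members within each library, on a log axis, with blue points for control, red points for H/R and short bars at the geometric means (n = 3). The points of the 2 groups are apart for Stt3a / Stt3b, Magt1 / Tusc3, Sec11a / Sec11c and Canx / Calr, and overlap for Sec62 / Sec63.

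Count ratios within a library do not depend on the scaling of the libraries, and gene length does not affect their comparison between groups. In 4 of the 5 pairs compared the groups did not overlap, with an exact permutation p of 0.1, the smallest that 3 libraries against 3 allow, and 0.125 after Benjamini-Hochberg adjustment over the 5 pairs. The design cannot reach 0.05 in this test. Separation was common in these data, since 24.0% of single tested genes lay below and 25.7% above without overlap. The share among other pairs of genes was not computed. Sec11a to Sec11c went from 1.46 ± 0.103 to 2.73 ± 0.191. Sec62 to Sec63 measured 14.4 ± 5.09 in control and 24.0 ± 10.1 in H/R libraries and overlapped (exact permutation p = 0.3).

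Of all gene counts, the members together held 2.16, 2.02 and 2.04% in control and 0.909, 0.903 and 0.916% in H/R. The groups did not overlap, with an exact permutation p of 0.1, and the mean share was 2.28-fold lower after H/R. Calr alone held 0.676 ± 0.0244% in control and 0.102 ± 0.00333% in H/R libraries. Without Calr the share of the members went from 1.39 ± 0.0707% to 0.807 ± 0.00348%, a ratio of 1.73. The change in share was -1.16 percentage points over all members and -0.573 percentage points for Calr. The subunits of OST went from 0.385 ± 0.0189% to 0.185 ± 0.00359%. The ALG enzymes held 0.0228 ± 0.00229% and 0.0191 ± 0.00194%, and their libraries overlapped (exact permutation p = 0.3).

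**Figure D4:**
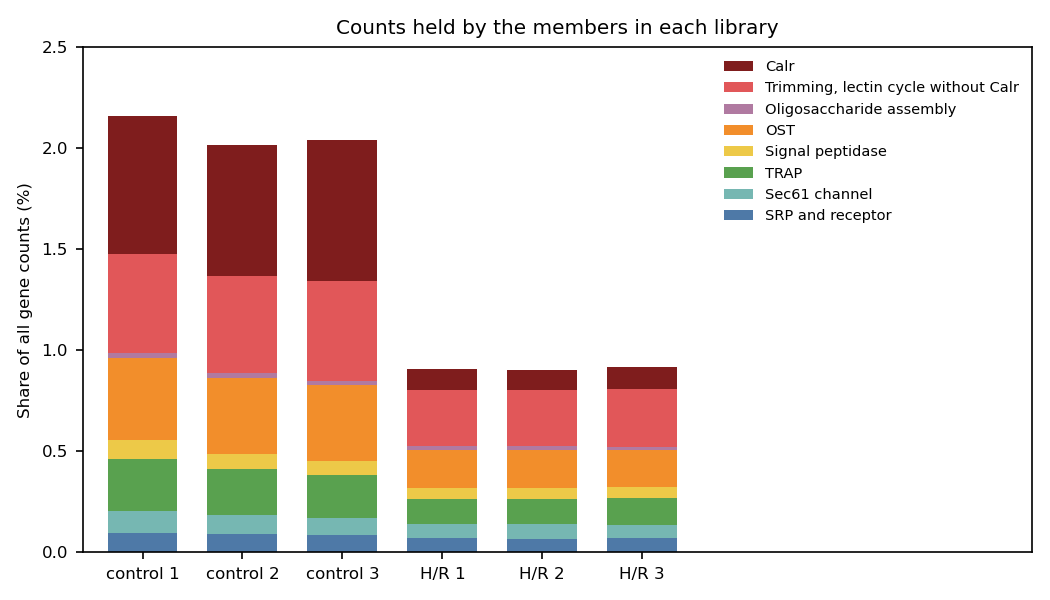
Share of all gene counts in each library held by the members, in percent, stacked by complex, with Calr drawn apart from the rest of the trimming and lectin cycle. The bars reach 2.02 to 2.16% in the control and 0.903 to 0.916% in the H/R libraries, and the Calr segment shrinks most.

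Per kilobase of exon (GENCODE vM21), the most abundant members in control cells were Calr at 2530, Canx at 805, Ssr3 at 424 and Rpn1 at 270 CPM per kb. After H/R the order of the first pair changed places, with Canx at 366 and Calr at 330 CPM per kb, followed by Ssr3 at 169 CPM per kb. Members with a higher level in control cells tended to have the lower log2 change, with a Spearman correlation of -0.53 over 41 members, against -0.20 over 11032 genes with a length. Both measures share the control libraries, and genes are not independent replicates. Spearman's correlation of exon length with the change was -0.28 over the members and -0.01 over all genes.

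The motif search covered the 300 bases from 250 before to 50 after the RefSeq start of the 32 members with an entry. The full ERSE was present in 2 of them, Calr and Canx (6.25%), and in 37 of 27025 genes with a promoter (0.137%). CCACG was present in 19 members (59.4%, against 35.5% of the 27025 genes) and CCAAT in 18 (56.3%, against 41.1%). The UPRE core was present in 2 (6.25%, against 2.22%), and ERSE-II and TGATGNAA in 0 members, against 0.0444% and 4.51% of the 27025 genes. These 27025 genes are not limited to the 14665 genes of the count table, and the shares among the latter were not computed. Members that had both CCAAT and CCACG fell in 10 of 13 cases, with a median log2 change of -1.03. The 8 with neither fell in 5 cases and rose in 1, with a median of -0.78. Counted by single box, 14 of 17 tested members with CCAAT and 14 of 19 with CCACG fell, beside 29 of all 41 tested members. Differences between these groups were not tested. The motifs are matches of letters and do not show that a factor binds there.

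Genes of the same pathway outside the members were read from 10 lists, with 110 of 120 symbols in the table and 106 tested. Of these 11 rose (10.4%), 27 fell (25.5%) and 68 did not pass, beside 18.8% and 19.0% of all tested genes, and the median log2 change was 0.03. Of the 38 calls, 15 were lost under at least 1 alternative fit. This split depends on the scaling, since 34 were higher and 15 lower by library totals alone. Further subunits of the same complexes fell in 8 of 11 cases with a median of -0.40. Some of these 8 calls were lost with no scaling factors or with a library left out. By adjusted p the first were Tram1, a channel partner that receives signal sequences, from 533 to 231 CPM (log2 change -1.20 ± 0.09), and Krtcap2, an OST subunit, from 131 to 75.3 CPM. Srp54b fell from 31.0 to 10.3 CPM, but it is a near copy of other Srp54 genes and its counts may be split among them. The enzymes that make UDP-N-acetylglucosamine, the donor of the first sugars, fell in 4 of 5 cases with a median of -1.06. Among them were Gnpnat1, from 149 to 59.3 CPM (log2 change -1.34 ± 0.11), Gfpt1, the entry enzyme of that route, from 225 to 108 CPM (-1.06 ± 0.10 in log2 units), and Pgm3, from 43.2 to 18.6 CPM (-1.22 ± 0.15 in log2 units). Adjusted p-values of these 3 were at most 3.76e-05 in edgeR's quasi-likelihood test.

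Further ALG enzymes were mixed, with 3 of 8 lower, 1 higher and a median of -0.05. The mannosyltransferase Alg12 fell from 66.8 to 23.2 CPM (log2 change -1.52 ± 0.18), the glucosyltransferase Alg6 from 33.5 to 17.4 CPM, and Alg10b, the last glucosyltransferase, rose from 245 to 318 CPM. Dolichol and mannose donor synthesis had 4 of 12 lower and 2 higher, with a median of -0.33. Gmppa and Gmppb, the subunits of the enzyme that makes GDP-mannose, fell by 1.02 and 1.07 on the log2 scale, while the phosphomannomutases Pmm1 and Pmm2 rose by 0.72 and 0.42. Pmm2 lost its call without control replicate 2 or 3 or H/R replicate 2 or 3. The later and neighbouring routes had medians near or above 0. In Golgi N-glycan processing 4 of 19 rose (21.1%, near the 18.8% of all genes) and 1 fell, with a median of 0.22. The mannosidase genes Man1a2 and Man2a1 rose, the former from 191 to 322 CPM and the latter from 183 to 309 CPM, as did the sialyltransferase gene St6gal1 from 22.8 to 47.6 CPM, while Man1c1 fell from 8.21 to 2.55 CPM.

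The ER membrane protein complex, another insertion route for membrane proteins, had 2 of 9 lower (22.2%, near the 19.0% of all genes), Emc2 and Emc7, and a median of 0.03. Emc7 lost its call without control replicate 2 or 3, without any H/R replicate, with a replicate block, with no filter on low counts and with no scaling factors. In tail-anchored and multipass insertion 1 of 10 fell, Nomo1, and 1 rose, Wrb, with a median of 0.04. The call of Nomo1 was lost with no scaling factors. In GPI anchor assembly, which starts at the same membrane, 4 of 20 fell, a share also near that of all genes, and 1 rose, with a median of 0.15. Piga, of the first step, fell from 64.8 to 16.2 CPM (log2 change -2.00 ± 0.14). Its call held in every alternative fit, while each other call of the GPI list was lost in at least 1. In O-mannose glycosylation 1 of 8 rose, Pomgnt2, with a median of 0.21, and among genes that remove N-glycans 1 of 4 rose, Fuca1, a lysosomal fucosidase, with a median of -0.05. Differences between these lists and the members were not tested.

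**Figure D5:**
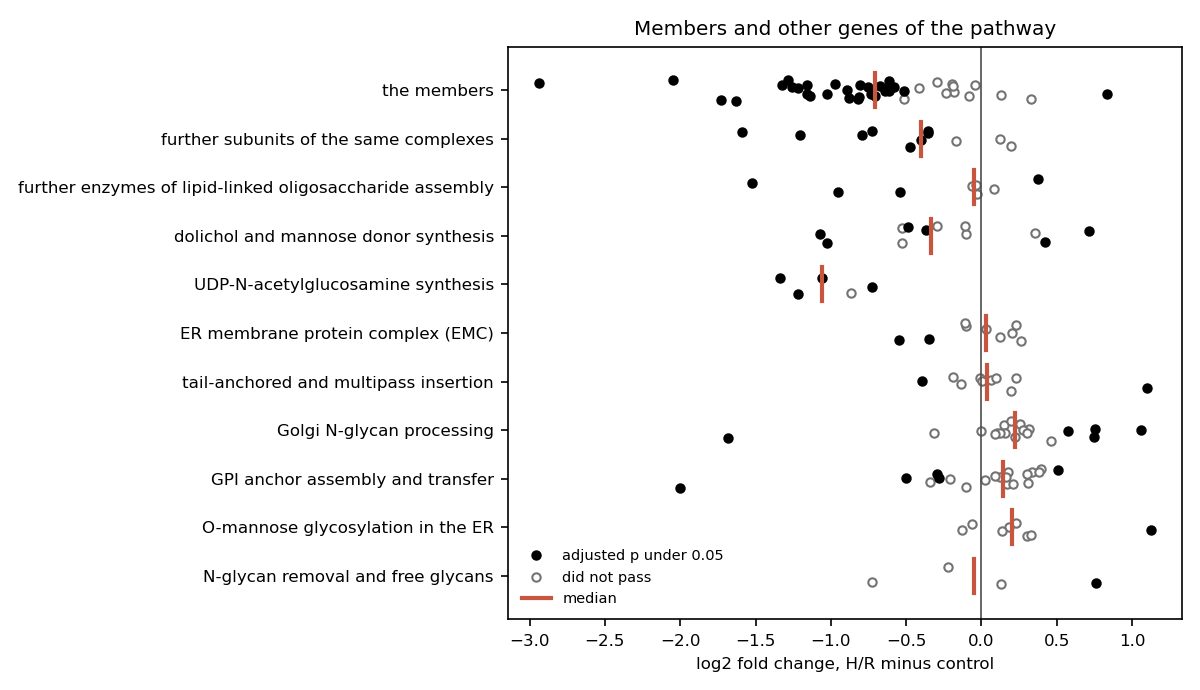
Change of each tested gene, as log2(H/R / control), for the members and for 10 lists of other genes of the pathway, with filled points for an adjusted p under 0.05, open points for genes that did not pass and a red bar at each median. The median lies at -0.71 for the members and -1.06 for UDP-N-acetylglucosamine synthesis, and between -0.40 and 0.22 for the other lists.

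Long noncoding transcripts annotated at member genes were counted in a table of their own. It held 80 of them at 29 members, of which 22 were tested. At the adjusted threshold of edgeR's quasi-likelihood test 0 rose and 2 fell, where 2.67% of all tested lncRNAs rose and 2.26% fell. Of the 22, 19 overlap an exon of their host on the same strand and so share its sequence. Both that fell are of this kind. ENSMUST00000128028 at Calr measured 245, 289 and 267 CPM of all lncRNA counts in control and 24.2, 16.2 and 57.1 CPM in H/R libraries (log2 change -3.03 ± 0.35, adjusted p = 3.69e-05, edgeR quasi-likelihood test), beside -2.94 for Calr itself. ENSMUST00000139538 at Sec11c had a log2 change of -1.80 ± 0.33, beside -1.63 for Sec11c. Reads of these transcripts and of their host genes cannot be told apart from the counts. The antisense transcript ENSMUST00000176894 at Alg9 and the bidirectional transcript AK082364 at Srp68 did not pass, with log2 changes of 0.15 and 0.97.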

How the data were processed

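RNA was sequenced in 3 control and 3 H/R libraries after removal of ribosomal RNA. Per the submitters' processing notes and the study's methods, the authors used cutadapt 1.9.3 for trimming, HISAT2 2.0.4 for alignment to mm10 and HTSeq 0.9.1 for the raw counts per gene. The deposited lncRNA counts are per transcript, with a counting tool not given in the sources used here, and the deposited circRNA counts are reads over back-splice junctions after alignment with STAR 2.5.1b. The strand setting is not given in the sources used here. Columns of the authors' own comparison, made with edgeR 3.16.5 (fold changes and p-values), and 18 further columns of per-sample values were left out.

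The members and all lists of genes were chosen with earlier results of these data known. The whole table was fitted with edgeR 4.0.16 in R 4.3.3 (filterByExpr, TMM, glmQLFit and glmQLFTest, no covariate), and p was adjusted over 11104 genes, with a coefficient of variation between libraries of 0.144. Confidence intervals of log2 changes use the standard error and degrees of freedom of that test. The test had been tried on simulated counts. Shares and count ratios were compared with exact two-sided permutation tests (scipy 1.17.1). The circRNA shares are given with exact Clopper-Pearson intervals at 95%, which cover counting error only, since reads amplified by PCR and lacking molecular identifiers can be copies of the same molecule. Exon lengths and coordinates are from GENCODE vM21, and promoters from RefSeq. All 42 members are named, and of each other list up to 3 genes per direction with the smallest adjusted p among those that passed, or any member where 3 or fewer passed.

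The alternatives tried were RLE or no scaling factors, other filters, the exact test of edgeR, DESeq2 1.42.0, a replicate block, each library left out, H/R libraries thinned to 8210400 counts and the thresholds of the study. Protein sequences of paralogous members were not compared.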

Additional observations from a re-analysis of the deposited data

Results flagged for a closer look

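Reads over circRNA junctions of member genes, which the comparisons of the report do not use, made up a larger share in each H/R library than in any control library. They were 2, 4 and 2 of 1386, 1846 and 1751 junction reads in the control libraries (0.144, 0.217 and 0.114%) and 13, 7 and 8 of 3111, 2938 and 3335 in the H/R libraries (0.418, 0.238 and 0.240%). The lowest H/R library, at 0.238%, stood above the highest control library. In that library, H/R replicate 2, 6 of the 7 reads came from a single intronic circRNA of Ssr1. This circRNA had 0 reads in every other library, so the place of H/R replicate 2 above the control libraries rests on it. Summed over a group the share was 0.161% in control (8 of 4983 reads, exact 95% interval 0.0693 to 0.316%) and 0.298% in H/R (28 of 9384, exact 95% interval 0.198 to 0.431%), and these intervals, which cover counting error only, overlap. The reads came from 9 circRNAs of 6 members, Canx, Sec11a, Sec63, Srp72, Ssr1 and Uggt1, each with at most 6 reads in a library, and none was compared by a test. The gene levels of all 6 hosts, scaled by TMM, were lower in H/R libraries by edgeR's quasi-likelihood test. The call of Sec63 was lost without certain libraries and with no scaling factors.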

How the results depend on the processing

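Of the 30 calls among members, 28 held under all 14 alternative fits, and the exceptions were Alg3 and Sec63. Members that fell numbered 27 to 31 and 1 rose when each library was left out in turn, and the median log2 change was -0.79 to -0.63. Without scaling factors the median of all genes moved from 0.01 to 0.22 and that of the members to -0.49, with 27 members lower and 3 higher (1 in signal peptidase, Spcs1, and 1 among ALG enzymes, Alg1), 34 pathway genes higher and 15 lower, and 3704 of all genes higher and 1272 lower. The same setting turned 5 members that had not passed, Sec62 to 0.0341, Srp14 to 0.13, Srp19 to 0.0204, Tusc3 to 0.0215 and Ganab to 0.17. With each library left out, Dpagt1 ran from -0.43 to 0.0667 (above 0 without control replicate 1) and Ganab from -0.39 to 0.21 (above 0 without control replicate 1 or H/R replicate 1 or 2). At the thresholds of the study 12 members were lower and 0 higher, with 0 lower in SRP and its receptor, 1 in Sec61, 2 in signal peptidase, 0 among ALG enzymes and 0 higher in trimming. There 10 pathway genes were lower and 3 higher, and 596 and 646 of all genes. The share of counts changed by -1.16 percentage points with Calr and by -0.588 without Calr.

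Whether replicate numbers pair the libraries was not tested. Deviations of same-numbered libraries correlated at 0.0392, 0.0042 and 0.0219, beside -0.0314 to 0.0077 for the other pairs. Each control library, but not H/R replicate 2, correlated best with its own number. With a replicate block 30 members fell and 1 rose, with a median of -0.70. The cause of these shifts was not tested. Ganab and Alg9 had few reads, and why was not tested. Among the other pathway genes, 23 of 38 calls held in every fit. Protein identity of paralogs and alternative promoter windows were not run.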
